A study of Mus musculus with 5 samples.

Results

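Rab GTPases are small membrane proteins that switch between a GDP-bound and a GTP-bound form and give each compartment of the cell its identity in membrane traffic. In the GTP form they recruit effectors, which bud, move, tether and fuse vesicles. Lung epithelial cells use them to deliver and recycle apical membrane proteins and to store and secrete surfactant from lamellar bodies, which are lysosome-related organelles. The genes described here were picked by symbol: the Rab GTPases themselves, the Rab11 family interacting proteins, the synaptotagmin-like proteins (Sytl) and Exph5, also called Slac2-b, the last 2 classes being effectors of Rab27 proteins. The rule found 70 genes, 59 of them GTPases, 5 Rab11 family interacting proteins, 5 Sytl genes and Exph5, out of 19937 genes with a single symbol on the array. They were read by 74 probe sets.

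All samples came from MLE-15, a line grown out of lung epithelial tumours in mice that carried the SV40 large tumour antigen under the human surfactant protein C promoter. The 3 Grhl2 shRNA cultures had received a lentivirus with a GFP marker and the single hairpin V2LMM_20130 against Grhl2, a transcription factor of epithelia. The 2 control cultures had received the same kind of lentivirus with a non-targeting shRNA, so both groups had been exposed to virus, polybrene and puromycin. Each culture was an independent transduction (multiplicity of infection 50, 16 h) selected in puromycin for 6 days, and its RNA was read on 1 whole-transcript array. The values are log2 signals normalized by RMA. The series asked which genes depend on Grhl2 in lung epithelium.

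Grhl2 itself read 7.43, 7.43 and 7.60 on the shRNA arrays and 7.77 and 7.68 on the control arrays, so the groups did not overlap. The log2 difference of −0.24 (SE 0.065) left 85.0% of the control signal and missed the threshold (limma adjusted p = 0.082). An exact permutation over the arrays (two-sided) gave p = 0.2. Of 10 alveolar type II markers, 8 passed the filter on dim probe sets: Sftpb and Nkx2-1 had mean log2 signals of 12.1 and 10.00, while Lamp3 and Slc34a2 lay below it. Of this list 2 genes were called higher and 1 lower. Of 5 marker genes of airway secretory cells on the array 1 was called higher. So was 1 of 6 for fibroblasts, 1 of 6 for endothelial cells and 1 of 5 for leukocytes. None of these lists had a gene called lower, and over all genes tested 2.86% were called higher. The mean level of each of these 4 lists was slightly higher on every shRNA array than on either control array, for example 4.69 to 4.79 against 4.60 to 4.64 for the endothelial list. Kdr and Emcn of that list lay below the filter, as did Scgb3a2, Lum and Ptprc of the others, so they were not tested. The part of these shifts in the results that follow was not tested. An array of bulk RNA cannot tell fewer cells of a type from less RNA per cell.

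Of the 70 genes, 62 passed the filter, a mean log2 signal of at least 4.22, and were tested. Of these, 5 fell in Grhl2 shRNA cells and none rose, at a limma adjusted p under 0.05 over all 14979 genes tested. The 5 were Exph5, Rab2b, Rab6b, Rab9 and Rab3b. They are 8.06% of the tested members, beside 6.38% of all genes called in either direction, 3.52% called lower and 2.86% called higher. The share called in either direction was near that of all genes. Exph5 had been named in earlier results of these data, so its call lends this count no support. Among the 52 tested GTPases alone, 4 fell and none rose, 7.69% called. At an unadjusted p under 0.05 there were 13 members, beside 23.1% of all genes. The remaining 57 did not pass. Below 0 lay 39 differences and above 0 lay 23, with a median of −0.011 against 0.0020 over all genes. The typical size was also like that of other genes: the median absolute log2 difference was 0.055 for the members and 0.066 for all genes tested. The 2 groups of arrays did not overlap in 32 members (22 lower and 10 higher in shRNA cells), 51.6%, beside 41.5% of all genes (20.5% lower and 21% higher). The count of 5 depended on single arrays. Leaving out either control array lowered it. It was 1 without shRNA replicate 1, 0 without shRNA replicate 2 and 2 without shRNA replicate 3. At an unadjusted limma p under 0.05 there were 15, 13 and 12 members in those 3 shRNA fits, beside 3277, 2810 and 3226 of all 14979 genes. Of the 5 genes, Rab2b, Rab6b, Rab9 and Rab3b passed in none of these fits, the smallest limma adjusted p being 0.051 for Rab2b. The 2 called without shRNA replicate 3 were Exph5 and Rab30, which is not among the 5. With each array centred on its median, 3 were called (Exph5, Rab2b and Rab6b). As many differences then lay above 0 as below, 31 each.

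**Figure D1:**
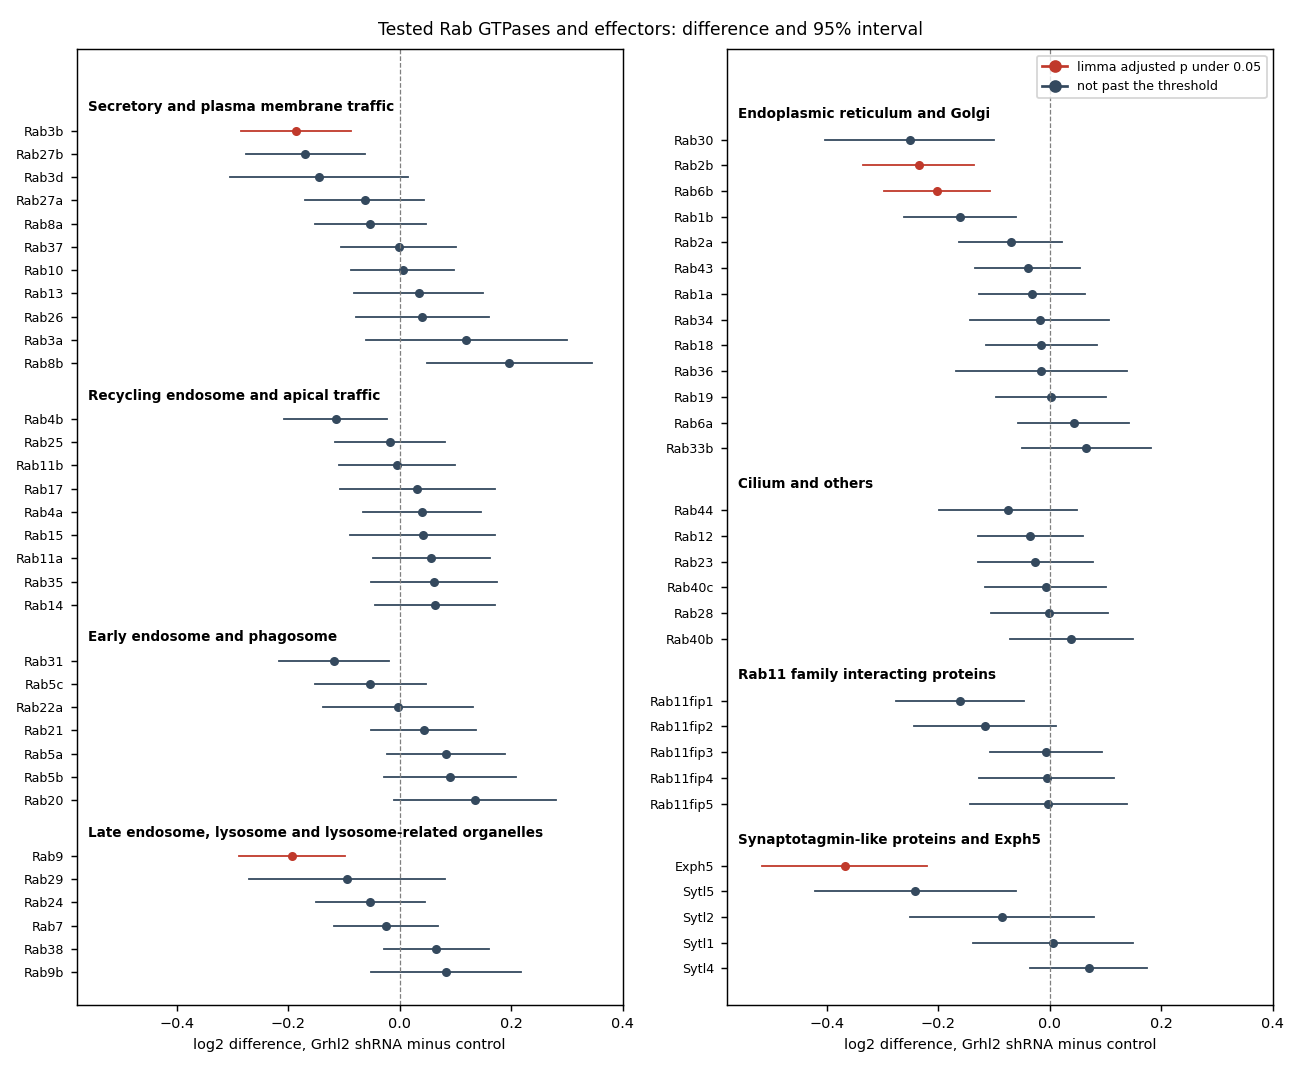
Log2 difference (Grhl2 shRNA minus control, x axis) with its 95% confidence interval for each of the 62 tested genes, grouped by the compartment or class they are known for. The 5 genes past the threshold (red) all lie below 0, Exph5 farthest at −0.37, and the other 57 lie between −0.25 and 0.20.

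For the 5 genes past the threshold, the 250 bases upstream of their annotated start sites are shown. The sequences come from RefSeq on build GRCm38.p6 and are written 5′ to 3′ on the strand of the gene. Capitals mark the GC box GGGCGG and the box CCAAT, which bind general promoter factors, on either strand; neighbouring GC boxes can overlap. The stretches are chr9:53301420-53301669 (plus strand) for Exph5, chr14:52279396-52279645 (minus) for Rab2b, chr9:103111824-103112073 (plus) for Rab6b, chrX:166479868-166480117 (minus) for Rab9 and chr4:108878820-108879069 (plus) for Rab3b.
Exph5: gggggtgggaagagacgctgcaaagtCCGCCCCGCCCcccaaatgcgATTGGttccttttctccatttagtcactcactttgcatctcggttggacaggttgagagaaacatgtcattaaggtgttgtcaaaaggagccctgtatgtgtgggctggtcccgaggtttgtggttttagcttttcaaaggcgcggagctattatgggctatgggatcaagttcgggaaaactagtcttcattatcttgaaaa
Rab2b: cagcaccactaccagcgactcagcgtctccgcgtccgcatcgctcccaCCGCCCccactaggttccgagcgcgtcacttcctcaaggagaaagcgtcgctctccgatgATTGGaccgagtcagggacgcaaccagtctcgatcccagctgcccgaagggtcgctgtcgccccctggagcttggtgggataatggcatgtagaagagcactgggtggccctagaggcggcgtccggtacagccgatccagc
Rab6b: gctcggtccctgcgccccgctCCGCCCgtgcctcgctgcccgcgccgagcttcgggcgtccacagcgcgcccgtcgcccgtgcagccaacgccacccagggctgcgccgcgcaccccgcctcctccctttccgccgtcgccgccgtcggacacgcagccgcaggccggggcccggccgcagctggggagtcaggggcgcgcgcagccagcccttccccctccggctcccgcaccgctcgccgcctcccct
Rab9: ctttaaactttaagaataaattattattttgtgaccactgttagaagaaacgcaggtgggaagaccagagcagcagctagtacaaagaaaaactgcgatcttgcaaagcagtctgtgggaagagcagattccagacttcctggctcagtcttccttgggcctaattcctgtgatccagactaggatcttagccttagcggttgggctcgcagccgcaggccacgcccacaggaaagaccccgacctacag
Rab3b: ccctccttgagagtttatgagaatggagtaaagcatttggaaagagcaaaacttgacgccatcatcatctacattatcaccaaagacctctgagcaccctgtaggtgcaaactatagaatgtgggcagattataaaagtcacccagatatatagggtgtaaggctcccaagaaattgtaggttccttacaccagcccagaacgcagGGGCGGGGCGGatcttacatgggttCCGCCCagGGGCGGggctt
The upstream stretches differ in make-up. That of Rab6b held 80.8% G and C and that of Rab2b 64.0%, while Exph5, Rab9 and Rab3b each had 48.8%, beside a median of 59.2% over the 11808 tested genes with a promoter sequence. Rab3b had 4 GC boxes, Exph5 had 2, Rab2b and Rab6b had 1 each and Rab9 had none. A CCAAT box was present in Exph5 and Rab2b. Over the whole window, which adds the first 50 transcribed bases, 37 of the 49 tested members with a sequence held a GC box (75.5%, against 63.7% of all tested genes) and 26 held CCAAT (53.1% against 41.6%).

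The sequence AACCNGTT, the type of site that Grainyhead-like factors are known to bind, was searched on both strands of the same windows. None of the 5 genes that fell had it. It was found in 2 of the 49 tested members with a sequence, Rab11fip2 and Rab25 (4.08%, against 2.21% of all tested genes). These 2 stretches are shown because they hold the only matches, with the site in capitals, at chr19:59943875-59943904 for Rab11fip2 and chr3:88548363-88548392 for Rab25, both on the minus strand of GRCm38.p6.
Rab11fip2: tggaAACCGGTTctctcccaatagcgggcg
Rab25: agcagacacctAACCTGTTtaacctgtctg
The Rab11fip2 site lies 246 to 239 bases before the start and reads the same on both strands. The Rab25 site lies 102 to 95 bases before it. Neither gene passed the test: Rab11fip2 differed by −0.12 (adjusted p = 0.25) and Rab25 by −0.02 (adjusted p = 0.86). A match is a string of letters in this window and shows no binding, and a missing one says nothing about sites elsewhere.

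Rab27 proteins and their effectors dock secretory granules and lysosome-related organelles at the plasma membrane. Among the Rab27 proteins and those of their effectors that were picked by symbol, Exph5 fell and no other tested member passed. Exph5 (probe set 10585331) read 8.03, 8.17 and 8.21 on the shRNA arrays and 8.53 and 8.47 on the control arrays. All 3 shRNA values lay below both controls, and the gap between the groups exceeded the range within either. The means were 8.14 ± 0.10 (SD, n = 3) and 8.50 ± 0.04 (SD, n = 2), which gives a log2 difference of −0.37 (SE 0.063, 95% interval −0.52 to −0.22), or 77.5% of the control signal. The limma adjusted p was 0.023, and an exact permutation (two-sided) gave p = 0.1, the smallest that 10 splits allow. No other tested member had so large a difference. Its call was kept without shRNA replicate 1 or 3 (adjusted p = 0.039 and 0.037) and lost without shRNA replicate 2 (0.061), control replicate 1 (0.13) or control replicate 2 (0.11).

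The GTPases that Exph5 binds differed less. Rab27a read 8.26, 8.35 and 8.32 in shRNA cells against 8.39 and 8.36, a difference of −0.06 (SE 0.045, adjusted p = 0.46). Rab27b read 8.16, 8.13 and 8.13 against 8.36 and 8.27, a difference of −0.17 (SE 0.045) that missed the threshold (limma adjusted p = 0.075). For both genes every shRNA value lay below every control value, by a margin of less than 0.01 for Rab27a. Sytl5, another Rab27 effector, read 8.18, 8.41 and 8.40 against 8.54 and 8.61, a difference of −0.24 (SE 0.076, adjusted p = 0.11). Its second probe set, with a difference of −0.29, gave the same order of groups. Sytl2 differed by −0.09 (adjusted p = 0.52), Sytl4, which is also called granuphilin, by 0.07 (adjusted p = 0.40) and Sytl1 by 0.005 (adjusted p = 0.98), a value whose sign turned when some single arrays were left out. Sytl4 was dim, with signals of 4.35 to 4.47, and Sytl3 lay below the filter.

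**Figure D2:**
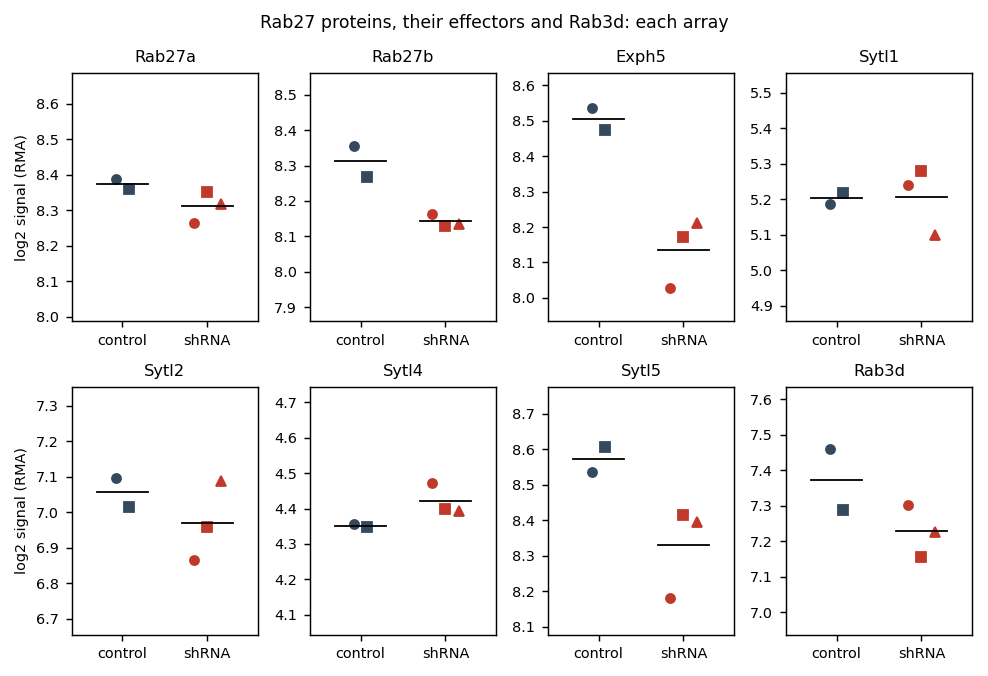
Log2 RMA signal of each array for Rab27a, Rab27b, their tested effectors among the members, and Rab3d. Circle, square and triangle mark replicates 1, 2 and 3, and the black line marks the group mean. Each y axis spans the same range of 0.7 around the gene's mean. The groups do not overlap for Exph5, Sytl5 and Rab27b nor, by small margins, for Rab27a and Sytl4, and of the genes drawn Exph5 alone passed the threshold.

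The Rabs of secretion and of traffic to the plasma membrane had values on both sides of 0. Among the 11 tested, Rab27a and Rab27b included, Rab3b alone passed and the other 10 did not, with a median log2 difference of −0.0018. Rab3b (probe set 10506883), a Rab of regulated exocytosis, read 10.21, 10.23 and 10.24 in shRNA cells and 10.44 and 10.39 in controls. Its SDs of 0.018 and 0.036 were small beside the step between the groups. The difference was −0.19 (SE 0.042, 95% interval −0.28 to −0.09), or 87.9% of control, with an adjusted p of 0.048 in limma, just inside the threshold. Rab3d, which marks secretory granules in many exocrine cells, read 7.30, 7.16 and 7.23 against 7.46 and 7.29. Its groups overlapped, and the difference of −0.15 had a standard error of 0.068 (adjusted p = 0.26). It moved to −0.06 without control replicate 1 and to −0.23 without control replicate 2. Rab8b, of basolateral and ciliary traffic, had the largest value above 0 of the tested members: it read 8.11, 8.22 and 8.19 against 8.06 and 7.89, a difference of 0.20 (SE 0.063, adjusted p = 0.12). Leaving out control replicate 1 or 2 changed that value to 0.28 or 0.11. Rab8a, its close relative, differed by −0.05, and Rab10 and Rab13, which serve polarised delivery and junctions, by 0.005 and 0.03.

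Among the Rabs of the endoplasmic reticulum and Golgi, 2 of 13 fell, none rose and 11 did not pass. The median was −0.03, with 10 values below 0. Rab2b (probe set 10419676), which acts between the endoplasmic reticulum and Golgi, read 6.68, 6.71 and 6.74 in shRNA cells against 6.96 and 6.94. Every shRNA value was at least 0.19 below the lower control. The difference was −0.24 (SE 0.042, 95% interval −0.33 to −0.14), or 84.9% of control, with a limma adjusted p of 0.026. Rab6b (probe set 10588283), the Rab6 form best known from neurons and a regulator of retrograde Golgi traffic, read 6.87, 6.90 and 6.88 against 7.11 and 7.07. The groups were well apart, with SDs of 0.012 and 0.027. The difference was −0.20 (SE 0.040), or 86.9% of control, with an adjusted p of 0.035.

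Others in this class lay just outside the threshold. Rab30, a Golgi Rab, read 5.74, 5.65 and 5.86 against 5.99 and 6.02, a difference of −0.25 (SE 0.064, limma adjusted p = 0.068). That is larger than the fall of Rab2b, with a wider spread. Without shRNA replicate 3 the difference of Rab30 was −0.31 and passed (limma adjusted p = 0.042). Rab1b, which controls export from the endoplasmic reticulum, read 10.11, 10.04 and 10.06 against 10.23 and 10.23, a difference of −0.16 (SE 0.042, adjusted p = 0.073). At an adjusted p under 0.1 the members called were the 5 above with Rab30, Rab1b and Rab27b, all lower, 8 genes against 12.4% of all genes at that limit.

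Of the 6 tested Rabs of late endosomes and lysosome-related organelles, Rab9 fell and 5 did not pass. Rab9 (probe set 10607832), which returns mannose 6-phosphate receptors from late endosomes to the Golgi, read 8.71, 8.68 and 8.70 in shRNA cells against 8.88 and 8.91. The groups were separated by more than 0.16, several times the SDs of 0.016 and 0.021. The difference was −0.19 (SE 0.040, 95% interval −0.29 to −0.10), or 87.5% of control, with a limma adjusted p of 0.039. Rab38, which takes part in forming lysosome-related organelles such as lamellar bodies and melanosomes, read 8.42, 8.42 and 8.39 against 8.34 and 8.35. All 3 shRNA values lay above both controls, but the difference was 0.07 (SE 0.040, adjusted p = 0.38). Rab7, the main late endosomal Rab, differed by −0.02 with a 95% interval of −0.12 to 0.07, and the Rab38 relative Rab32 lay below the filter.

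**Figure D3:**
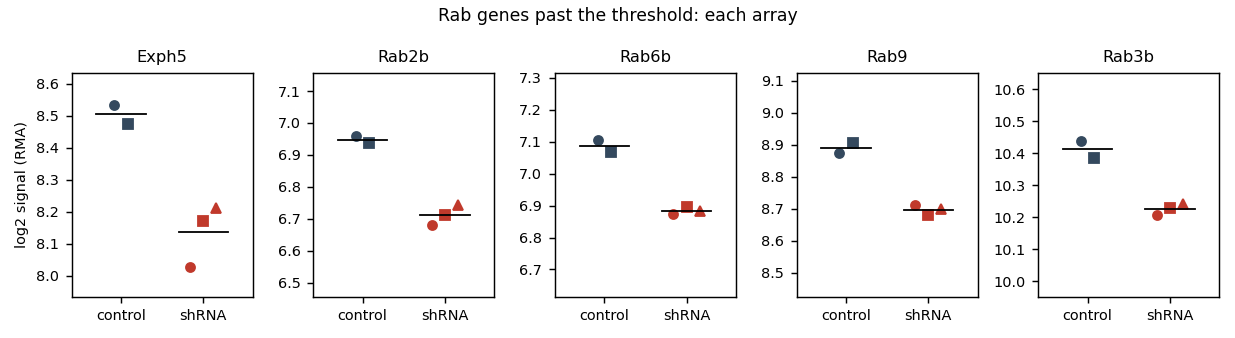
Log2 RMA signal of each array for the 5 genes past the threshold (circle, square and triangle for replicates 1, 2 and 3; black line, group mean); each y axis spans the same range of 0.7. The 3 shRNA arrays lie below both control arrays in each panel, and the step is widest for Exph5, from a mean of 8.50 to 8.14.

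No Rab of the recycling or early endosome passed. Of 9 recycling and apical Rabs the median difference was 0.04 and the range ran from −0.12 for Rab4b to 0.06 for Rab14. Rab11a, the central Rab of recycling endosomes, read 8.90, 8.98 and 8.91 against 8.86 and 8.88, a difference of 0.06 (adjusted p = 0.51). Rab25, the epithelial Rab11 relative, read 9.79, 9.84 and 9.79 against 9.81 and 9.84. Its groups overlapped, and the 95% interval of its difference ran from −0.12 to 0.08. Of 7 early endosome and phagosome Rabs the median was 0.04, with Rab31 at −0.12 (adjusted p = 0.15) and Rab20 at 0.13 (SE 0.061, adjusted p = 0.25). Rab20, of phagosomes, read 7.89, 7.72 and 7.82 against 7.63 and 7.72, so its groups overlapped. The core early endosome Rabs Rab5a, Rab5b and Rab5c differed by 0.08, 0.09 and −0.05. The 6 Rabs of cilia and other roles lay between −0.07 and 0.04.

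The 5 Rab11 family interacting proteins, which couple Rab11 and Rab25 to motors and tethers, were all tested and did not pass. All 5 differences were below 0, but 3 of them were within 0.01 of it. Rab11fip1, the Rab coupling protein, read 9.21, 9.28 and 9.29 against 9.46 and 9.39. These groups did not overlap, and the difference of −0.16 (SE 0.049) missed the threshold (limma adjusted p = 0.10). Rab11fip2, which binds myosin Vb, differed by −0.12 as given above, and Rab11fip3, Rab11fip4 and Rab11fip5 by −0.007, −0.006 and −0.003.

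Close relatives were also compared within each array, over 8 pairs chosen after the values had been seen. Most pairs start from a gene called in the same arrays, so the p-values below are descriptive and lend no support. The exact permutation test used here cannot go below p = 0.1 with 5 arrays. Rab6b minus Rab6a was −3.29, −3.32 and −3.28 in shRNA cells and −3.02 and −3.08 in controls, a change of −0.25. The corresponding change was −0.17 for Rab2b against Rab2a, −0.28 for Rab9 against Rab9b, −0.31 for Rab3b against Rab3a and 0.25 for Rab8b against Rab8a. In these 5 pairs the groups did not overlap and the exact permutation test (two-sided) gave p = 0.1 (adjusted over the 8 pairs, 0.16). Rab1b against Rab1a changed by −0.13 and Rab27b against Rab27a by −0.11 (both exact p = 0.2). The groups did not overlap in these pairs either, by a small margin for Rab27b. Rab3b against Rab3d changed by −0.04, with overlapping groups (exact p = 0.7). On their own, Rab9b differed by 0.08 and Rab3a by 0.12, each with overlapping groups. Part of the change in the pairs with Rab9 and Rab3b therefore lay in these relatives. Rab9b was dim, with group means of 4.76 in shRNA cells and 4.68 in controls. Whether probe sets of related Rabs also bind each other's transcripts was not tested.

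How firmly a missing call can be read depends on its interval. For 46 of the 57 members that did not pass, the whole 95% interval of the log2 difference lay within 0.25 of 0, and for 11 it reached beyond. That limit is wider than the falls called for Rab2b (−0.24), Rab6b (−0.20), Rab9 (−0.19) and Rab3b (−0.19). An interval inside it can therefore still include a change of that size. The intervals' half-widths ran from 0.093 to 0.18. Below the filter lay 8 genes, Rab3c, Rab7b, Rab32, Rab33a, Rab39, Rab39b, Rab42 and Sytl3, which were not tested. Of the 4 genes with a second probe set, Rab2a, Rab11b and Sytl5 had the same sign in both, as did Rab5b, at 0.01 in the dimmer one.

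Genes that act on Rabs or with them were taken from lists made by known role. Among the 136 tested, 7 fell and 1 rose, 5.88% called beside 6.38% of all genes, and 128 did not pass. Their median was −0.019. Of 35 exchange factors, which load Rabs with GTP, 1 fell, none rose and 34 did not pass. That gene was Hps1, a subunit of the complex that activates Rab32 and Rab38, and it fell by 0.28 (SE 0.045, limma adjusted p = 0.021) from 6.78 ± 0.05 to 6.50 ± 0.03. Its partner Hps4, chosen after its value was seen, differed by 0.08 (adjusted p = 0.30). Als2cl had the next largest value, −0.18 (adjusted p = 0.074).

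Of 34 Rab GTPase-activating proteins, which switch Rabs off, 1 rose, 1 fell and 32 did not pass. Tbc1d4, also called AS160, which acts on Rab8, Rab10 and Rab14 and holds back glucose transporter vesicles, rose by 0.38 (SE 0.076, adjusted p = 0.035): it read 7.14, 7.32 and 7.32 against 6.79 and 6.97. Its groups did not overlap, but the control values were 0.18 apart. Tbc1d8 fell by 0.21 (adjusted p = 0.038). Of 12 genes for prenylation, membrane insertion and extraction, Chml fell and 11 did not pass. Chml, an escort protein that presents new Rabs to the geranylgeranyl transferase, fell by 0.24 (SE 0.048, adjusted p = 0.035), while its relative Chm, chosen after its value was seen, differed by −0.05 (adjusted p = 0.60) and the transferase subunits Rabggta and Rabggtb, chosen likewise, by 0.03 each. Yipf5 was at −0.18 (adjusted p = 0.063).

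Of 39 other effectors, 2 fell, none rose and 37 did not pass. Lrrk1, a kinase that phosphorylates Rab7, fell by 0.34 (SE 0.044, adjusted p = 0.011), from 9.44 ± 0.01 to 9.10 ± 0.04. Plekhm1, a Rab7 effector that tethers late endosomes and autophagosomes to lysosomes, fell by 0.21 (adjusted p = 0.030). Of 16 exocyst and secretory SNARE genes, 2 fell, none rose and 14 did not pass. The exocyst subunit gene Exoc4 fell by 0.23 (SE 0.043, adjusted p = 0.030) and the syntaxin gene Stx11 by 0.24 (adjusted p = 0.037). The count of 8 called genes was 2, 1 and 3 without shRNA replicates 1, 2 and 3. At an unadjusted limma p under 0.05 there were 25, 19 and 21 of these genes in those fits, beside 3277, 2810 and 3226 of all 14979 genes. Leaving out either control array also lowered the count of called genes.

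**Figure D4:**
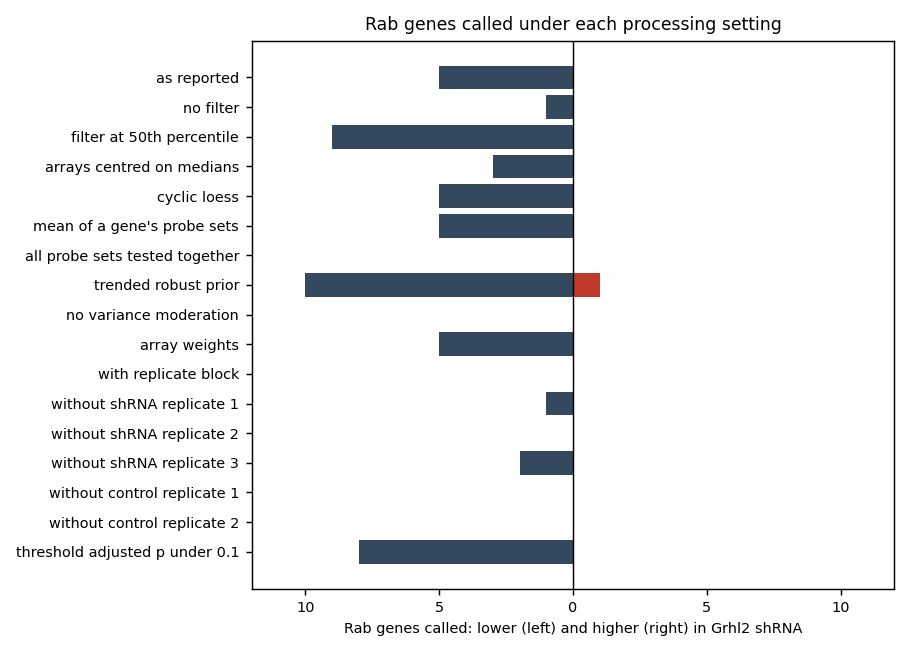
Number of Rab GTPase and effector genes called lower (bars to the left) and higher (bars to the right) in Grhl2 shRNA cells under each processing setting. The count ran from 0 to 11, and the 1 gene called higher appeared only with the trended robust variance prior.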

How the data were processed

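The deposited table holds log2 values of 34760 probe sets on 5 arrays. The authors made them by RMA with Affymetrix Expression Console, as stated in the submitters' processing notes. Its version and any filter are not given in the sources. RMA corrects background, normalizes quantiles and summarises probes, so differences are relative to the bulk of the array, and the number of arrays limits precision. The log base was taken from the method and the range of values.

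Genes were named from 21640 probe sets that the platform annotation pairs with 1 symbol (1321 have several and 11799 none listed); all 74 member probe sets matched RefSeq (GRCm38.p6) by Entrez ID, with no symbol changed. Probe sets with a mean below 4.22 (25th percentile) were left out, and the brightest stood for its gene. The 3 Grhl2 shRNA and 2 control arrays were compared with lmFit and eBayes in limma 3.58.1 (R 4.3.3), two-sided, Benjamini-Hochberg adjusted over 14979 genes, threshold 0.05. The fit was tested on simulated data. Errors are SDs per group, SEs of differences are moderated. P-values measure the spread between independent transductions of 1 line.

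The members and lists were chosen with earlier results of these data known. Named with full values are all 5 called members, the rule's fixed members (10 beyond Exph5, which was called) and the next largest up to 20; further members were named after their values were seen; from each other list, called genes up to 6, or the 2 largest where fewer than 2 were called. Promoter sequences were found for 56 of 70 members; protein sequences were not used here. Alternatives covered filter, normalization, probe set choice, variance prior, array weights, replicate block, each array left out and the threshold. No label ties same-numbered arrays of the 2 groups, so the numbers were not used as pairs. The deviations of such arrays had correlations of 0.057 and 0.019 over 2 pairs. With 2 controls the control deviations mirror each other, so these values cannot decide whether the arrays were paired.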

Additional observations from a re-analysis of the deposited data

How the results depend on the processing

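Each array that was left out lowered the number of calls, to between 0 and 2 for the Rab members, 0 and 3 for the other Rab pathway genes and 67 and 493 of the 956 for all genes. Without a control array, the lone control is assumed to vary like the other group. With no filter the counts were 1, 2 and 418, and with a cut at the 50th percentile of mean signal 9, 16 and 1708. A trended robust variance prior gave 11, 15 and 2034, and an adjusted p under 0.1 gave 8, 13 and 1851. Without moderation of the variance limma called 0, 0 and 9. At an unadjusted p under 0.05 there were then 14 members, 28 other pathway genes and 2870 of all genes. With all 34760 probe sets tested together it called 0, 0 and 0, with 12, 19 and 4515 at an unadjusted p under 0.05. Centring each array on its median left 3 members. The replicate number as a block gave 0, 0 and 172. In that fit 11 members, 22 other pathway genes and 3226 of all genes had an unadjusted p under 0.05. The arrays share only a number. Replicate 3 exists only in the shRNA group, so the block takes up that array entirely. Differences therefore equal those found without it, −0.41 for Exph5 in both fits. Exph5 lost its call with all probe sets together (−0.37, adjusted p = 0.19), without moderation (−0.37, adjusted p = 0.17) and with the block (−0.41, adjusted p = 0.067), and ran from −0.41 to −0.31 with single arrays left out. Over its 16 alternatives the adjusted p lay between 0.0012 and 0.19. Grhl2 passed with the stricter filter (−0.24, adjusted p = 0.032), the trended prior (−0.24, adjusted p = 0.023), the 0.1 threshold (−0.24) and without shRNA replicate 3 (−0.29, adjusted p = 0.047), and ran from −0.29 to −0.19 with single arrays left out. Sytl1 ran from −0.031 to 0.059 there, reversing in 3 of 5 fits. Cyclic loess, array weights and the mean of a gene's probe sets kept the same 5 members. The cause of these shifts was not tested, and the part of the smaller number of arrays or the larger number of features was not tested either.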
